A study of Mus musculus with 11 samples.

Results

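The 38 genes described here are markers of the neurons and glia of the enteric nervous system, chosen by name for their pan-neuronal, transmitter, glial or trophic roles from the 43346 genes of a count table of mouse colon. RNA came from the colon of male Swiss Webster mice aged 8 to 10 weeks, 5 of them germ-free and 6 humanized. Germ-free mice had no microbiota, and humanized mice were germ-free mice gavaged at 4 to 5 weeks of age with 300 μL of stool suspension from 1 human donor and studied 4 to 5 weeks later. Both groups were singly housed and ate an autoclaved diet. The tissue was labelled only as colon, so the layers of the gut wall that each sample held are not known. The donor was a single person, so the humanized group represents 1 microbiota.

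The enteric nervous system lies in the gut wall as 2 networks of ganglia. The myenteric plexus lies between the muscle layers and drives motility, and the submucosal plexus lies under the mucosa and controls secretion and blood flow. Its neurons and glia arise from neural crest cells that colonize the gut, a process that needs GDNF signalling through Ret and endothelin 3 signalling through Ednrb. Excitatory motor neurons use acetylcholine and tachykinins, inhibitory motor neurons use nitric oxide and VIP, and many submucosal secretomotor neurons contain VIP. Enteric glia surround the neurons and carry S100b, Sox10 and Gfap.

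Between 49097005 and 64148538 reads per germ-free mouse and between 39125290 and 54219854 per humanized mouse were counted on genes. Levels are TMM-normalized RPKM (reads scaled to gene length and library size). The order of different genes by RPKM depends on the deposited gene lengths, whose derivation is not given. For Vip the deposited length is 1527 bases, while its annotated exons cover 3402 bases. Genes were compared with edgeR's exact test, with Benjamini–Hochberg correction over all 19863 genes that passed a low-count filter. LFC is the log2-fold change of humanized over germ-free mice, and an FDR below 0.01 counted as differential expression. SE is the standard error of the LFC and came from edgeR's quasi-likelihood fit, not from the exact test. The p-values set the difference between the groups against the spread between mice. Colonic epithelial genes were abundant in every mouse, with summed RPKM of 11 epithelial markers between 4285 and 6887. Of the 33 members that passed the filter, 16 had a mean above 1 RPKM in germ-free mice, and these means ran from 0.0919 for Chat to 17.6 for Vip.

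Of the 38 genes, 23 fell in humanized mice, none rose, 10 were not below the threshold, and 5 (Slc18a3, Slc5a7, Npy, Th and Fabp7) had too few reads to be tested. Across all genes tested, 10.1% were called lower and 9.20% were called higher. At an unadjusted p below 0.05, 27 members were lower and 1 (Tac1) was higher, and DESeq2 called Tac1 higher. For 20 members every humanized mouse had a lower CPM (counts scaled to library size) than every germ-free mouse, and for none was it higher, against 9.73% and 8.67% of all genes tested that were separated in these directions. The median LFC was −1.52 over the 33 members and 0.0084 over all genes tested. The filter kept 4 members (Elavl4, Tubb3, Gap43 and Sox10) only because of their counts in germ-free mice, and 19 of the other 29 members were called lower. edgeR's quasi-likelihood test called 17 members lower, where 6.53% of all genes were called, and none higher. The 6 members it did not call (Calb2, Ednrb, Nos1, Stmn2, Tubb3 and Vip) had FDR values between 0.0105 and 0.0182. All 12 smooth muscle markers fell in the same comparison, with a median LFC of −1.97, and their part in the neural levels was not tested. In bulk tissue, fewer neurons or glia and less RNA per cell cannot be told apart.

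**Figure D1:**
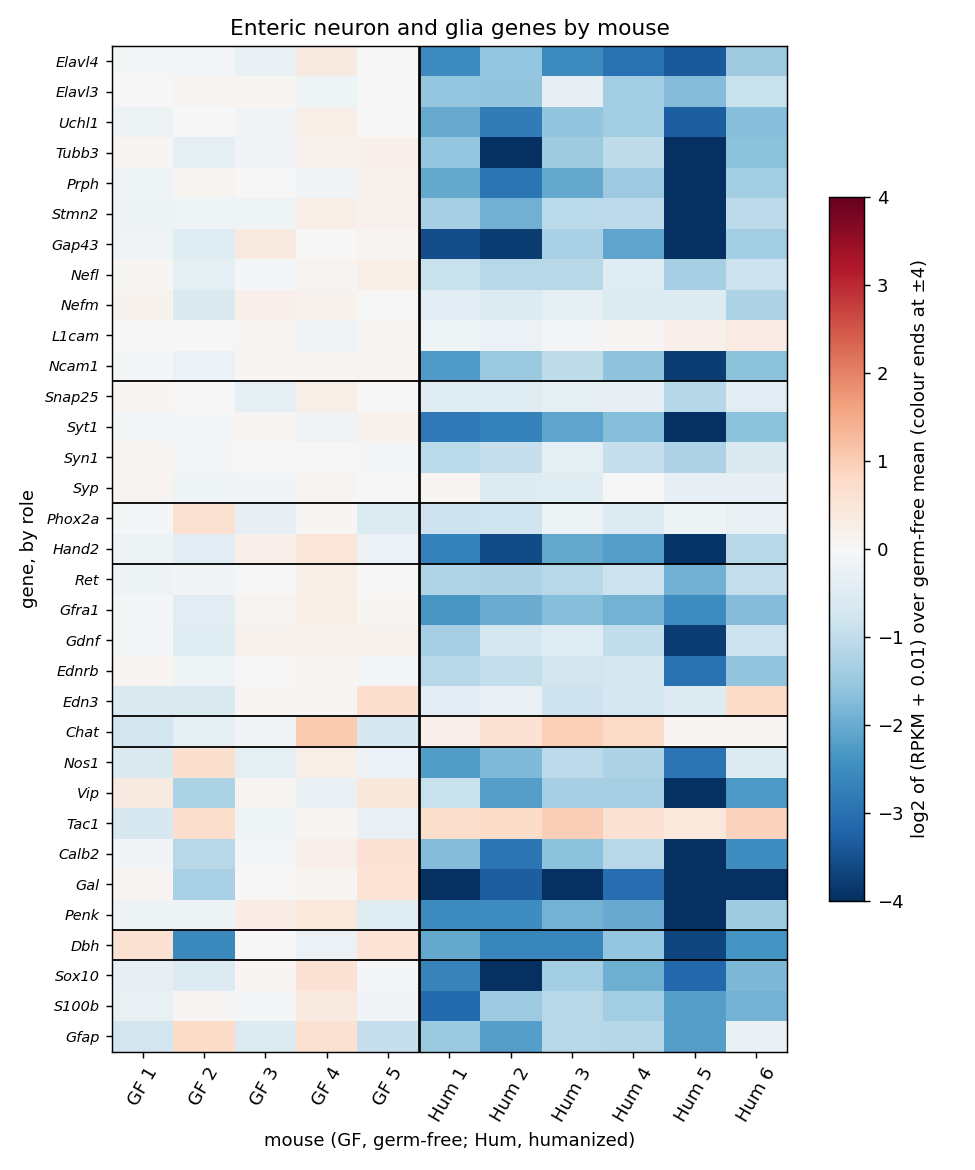
Expression of the 33 tested enteric neuron and glia genes (rows, grouped by role with black lines) in each of 5 germ-free (GF) and 6 humanized (Hum) mice (columns), as the log2 ratio of RPKM + 0.01 to the germ-free mean, with colour ending at 4 in either direction. Most rows are blue in every humanized mouse and many are darkest in humanized mouse 5, while Tac1 and Chat are pale or red and L1cam is near white.

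The promoters of 4 members that the results turn on are shown as the 250 bases before the RefSeq transcription start, on GRCm38.p6. Gal had the lowest LFC, and Vip had the highest germ-free RPKM of the members that fell. Prph is a neuronal filament gene that fell, and Tac1 had the highest LFC. The windows were chr19:3414545-3414794 (minus strand) for Gal, chr10:5638968-5639217 (plus strand) for Vip, chr15:99054924-99055173 (plus strand) for Prph and chr6:7554811-7555060 (plus strand) for Tac1. Capitals mark matches on either strand to TGACG, the start of the cyclic AMP response element TGACGTCA, to the TATA box TATAAA or to the E-box CAGCTG.
Gal: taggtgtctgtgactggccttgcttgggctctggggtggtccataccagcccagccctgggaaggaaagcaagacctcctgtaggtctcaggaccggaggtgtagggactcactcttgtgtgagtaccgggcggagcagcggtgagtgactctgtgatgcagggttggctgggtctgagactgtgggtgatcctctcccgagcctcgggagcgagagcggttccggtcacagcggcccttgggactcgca
Vip: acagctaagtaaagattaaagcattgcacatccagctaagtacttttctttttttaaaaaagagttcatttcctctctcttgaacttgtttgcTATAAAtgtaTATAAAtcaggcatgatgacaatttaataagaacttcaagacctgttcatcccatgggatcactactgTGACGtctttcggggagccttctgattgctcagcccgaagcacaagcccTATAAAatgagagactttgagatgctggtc
Prph: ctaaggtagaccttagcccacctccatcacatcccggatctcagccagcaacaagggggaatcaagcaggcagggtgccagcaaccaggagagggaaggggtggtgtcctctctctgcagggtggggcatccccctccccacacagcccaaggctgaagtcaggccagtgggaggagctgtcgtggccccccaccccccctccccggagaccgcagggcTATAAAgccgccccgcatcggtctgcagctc
Tac1: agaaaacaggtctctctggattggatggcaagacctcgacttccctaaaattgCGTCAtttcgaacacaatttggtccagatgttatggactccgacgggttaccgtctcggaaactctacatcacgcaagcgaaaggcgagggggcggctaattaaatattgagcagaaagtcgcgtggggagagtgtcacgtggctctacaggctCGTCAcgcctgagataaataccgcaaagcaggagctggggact
In Vip, TATAAA matches lay 157, 147 and 30 bases before the start and a TGACG match began 79 bases before it. In Prph, a TATAAA match began 31 bases before the start. The TGACG matches of Tac1 began 197 and 43 bases before the start, and Gal had no match to these motifs. TGACG was present in 17.8% and TATAAA in 12.4% of all 32851 promoter windows of this length, and in 12 and 5 of the 28 members with a window. The full TGACGTCA, which contains TGACG, was present in 1.55% of windows and in 2 of these 28 members (Syn1 and Th), and CAGCTG in 13.0% of windows and in 6 members. The percentages count windows, whereas a member was counted if any of its windows matched, so these shares are not in like units.

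The neuronal RNA-binding, cytoskeletal and adhesion genes were compared first. Of these 11 genes, 9 fell in humanized mice and 2 (Nefm and L1cam) did not pass the threshold. Elavl4 encodes HuD, an RNA-binding protein used to mark enteric neurons, and lies on chromosome 4 from 110203722 to 110351909 of GRCm38. Elavl4 stood at 0.241, 0.245, 0.206, 0.327 and 0.258 RPKM in germ-free mice 1 to 5, against a humanized range of 0.0156 to 0.0889 RPKM with a median of 0.0353. Every humanized mouse was below every germ-free mouse, and the level was 5.44-fold lower (LFC −2.44, SE 0.37, FDR = 1.01e-09). Between 65 and 110 reads per germ-free mouse and between 4 and 24 per humanized mouse lay behind these values. Its relative Elavl3, encoding HuC, also fell (LFC −1.24, SE 0.28, FDR = 1.72e-04). In germ-free mice 1 to 5 the level was 0.177, 0.194, 0.187, 0.156 and 0.176 RPKM, and the humanized mice ran from 0.0461 through a median of 0.0578 to 0.138 RPKM.

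Uchl1 encodes the neuronal ubiquitin hydrolase PGP9.5, a general marker of nerve fibres. Uchl1 stood at 3.08, 3.54, 3.25, 4.13 and 3.56 RPKM in germ-free mice 1 to 5, against a humanized range of 0.352 to 1.32 RPKM with a median of 0.961. The groups did not overlap (LFC −1.997, SE 0.29, FDR = 2.52e-09). Its exons share 295 bases with the antisense gene Uchl1os, and the library kit does not mark strand. Prph encodes peripherin, the intermediate filament of peripheral neurons. Levels in germ-free mice 1 to 5 were 2.16, 2.65, 2.42, 2.29 and 2.78 RPKM, whereas those in humanized mice spanned 0.0903 to 0.952 RPKM around a median of 0.586. The groups were again separate (LFC −2.10, SE 0.40, FDR = 9.04e-06). The lowest humanized value, in humanized mouse 5, rested on 8 reads.

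Ncam1, a neural adhesion molecule, fell (LFC −1.78, SE 0.35, FDR = 1.68e-05). RPKM values of Ncam1 were 1.08, 0.939, 1.17, 1.18 and 1.20 in germ-free mice 1 to 5 and 0.0711, 0.353 and 0.546 at the lowest, median and highest of the humanized mice. Gap43, a growth cone protein, fell as well (LFC −2.33, SE 0.52, FDR = 1.82e-04), with 2 to 40 reads per humanized mouse. Germ-free mice 1 to 5 had 1.23, 0.953, 1.73, 1.37 and 1.47 RPKM, and the lowest, median and highest humanized values were 0.0276, 0.205 and 0.540 RPKM. Tubb3 encodes the neuronal β-tubulin and fell (LFC −1.91, SE 0.50, FDR = 0.00142). Tubb3 stood at 1.49, 1.07, 1.30, 1.58 and 1.61 RPKM in germ-free mice 1 to 5, against a humanized range of 0.0563 to 0.688 RPKM with a median of 0.465. For these 3 genes every humanized mouse was below every germ-free mouse. Stmn2, a microtubule regulator of axons, was likewise lower in every humanized mouse (LFC −1.502, SE 0.41, FDR = 0.00248). In germ-free mice 1 to 5 the level was 0.756, 0.774, 0.775, 1.03 and 0.986 RPKM, and the humanized mice ran from 0.0376 through a median of 0.372 to 0.417 RPKM. The call of Stmn2 was lost without germ-free mouse 4, germ-free mouse 5 or humanized mouse 2.

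Nefl stood at 0.544, 0.396, 0.506, 0.569 and 0.622 RPKM in germ-free mice 1 to 5, against a humanized range of 0.206 to 0.373 RPKM with a median of 0.260. This neurofilament light chain gene fell (LFC −0.97, SE 0.19, FDR = 1.15e-04), while the medium chain gene Nefm did not pass the threshold (LFC −0.60, SE 0.19, FDR = 0.0279). Nefm was called lower without germ-free mouse 2 (edgeR's exact test, FDR = 0.00523) and with total counts (FDR = 0.00431). The exons of Nefl and Nefm overlap on opposite strands over 1108 bases, so their reads cannot be fully told apart. L1cam, an adhesion molecule of axons, had the second highest mean RPKM of the members in germ-free mice, after Vip. Levels in germ-free mice 1 to 5 were 17.0, 16.7, 17.4, 15.4 and 17.9 RPKM, whereas those in humanized mice spanned 14.4 to 21.2 RPKM around a median of 16.8. The humanized values lay on both sides of the germ-free ones (LFC 0.031, SE 0.096, FDR = 0.873). The direction of this small difference turned under other scalings, with an LFC of −0.23 when libraries were scaled to epithelial markers and −0.16 with total counts.

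**Figure D2:**
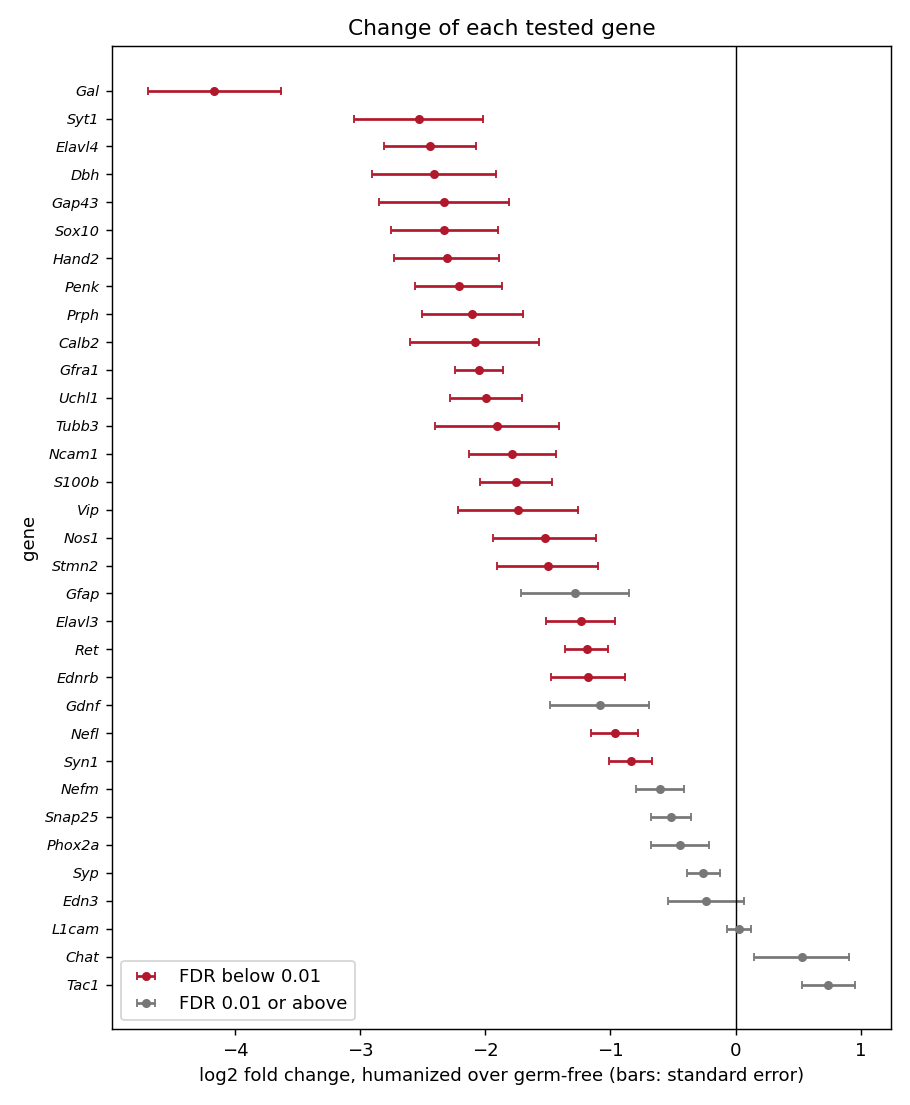
Log2-fold change of humanized over germ-free mice for each of the 33 tested genes (x axis), sorted, with standard errors from edgeR's quasi-likelihood fit as bars. Red points passed FDR 0.01 in edgeR's exact test. Gal has the lowest value at −4.17, and Tac1 the highest at 0.74, without passing the threshold.

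Among the 4 genes of synaptic vesicles and transmitter release, Syt1 and Syn1 fell and Snap25 and Syp did not pass the threshold in edgeR's exact test. Syt1 encodes the calcium sensor of vesicle fusion. RPKM values of Syt1 were 0.316, 0.312, 0.353, 0.294 and 0.360 in germ-free mice 1 to 5 and 0, 0.0551 and 0.0981 at the lowest, median and highest of the humanized mice. The groups did not overlap (LFC −2.53, SE 0.52, FDR = 2.50e-05). No read of Syt1 was counted in humanized mouse 5, which allows up to 0.00757 RPKM for 3 reads. Syn1 encodes synapsin I, which tethers vesicles, and fell without overlap (LFC −0.84, SE 0.17, FDR = 2.87e-04). Germ-free mice 1 to 5 had 0.707, 0.6255, 0.669, 0.675 and 0.629 RPKM, and the lowest, median and highest humanized values were 0.274, 0.343 and 0.499 RPKM. Snap25, a membrane fusion protein that endocrine cells also use, had a mean of 0.790 ± 0.115 RPKM (SD, n = 5) without and 0.552 ± 0.103 RPKM (SD, n = 6) with the human microbiota (LFC −0.52, SE 0.16, FDR = 0.0283). DESeq2 called Snap25 lower (FDR = 0.00830), as did the exact test with total counts (FDR = 0.00628). Syp encodes synaptophysin, which endocrine cells share (LFC −0.26, SE 0.13, FDR = 0.260). Syp stood at 1.18, 0.975, 1.02, 1.18 and 1.11 RPKM in germ-free mice 1 to 5, against a humanized range of 0.754 to 1.14 RPKM with a median of 0.871. Its groups overlapped, and its exons share 875 bases with a gene on the other strand. In the same mice, 4 of 9 enteroendocrine marker genes rose (Chga, Chgb, Tph1 and Sct) and 3 fell (Gcg, Insl5 and Cck), and the summed RPKM of all 9 ran from 343 to 525 in germ-free and from 298 to 436 in humanized mice. None of the 9 was at 0 in any mouse. The part of endocrine cells in these levels was not tested.

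Hand2, a transcription factor needed for enteric neurons to differentiate, fell 4.96-fold. In germ-free mice 1 to 5 the level was 1.34, 1.17, 1.81, 2.16 and 1.31 RPKM, and the humanized mice ran from 0.0942 through a median of 0.282 to 0.723 RPKM. The groups did not overlap (LFC −2.31, SE 0.42, FDR = 2.99e-06). Hand2 exons share 461 bases with the antisense gene Hand2os1. Phox2a, a homeobox factor of autonomic neurons, had a mean of 0.615 ± 0.200 RPKM (SD, n = 5) without and 0.446 ± 0.0900 RPKM (SD, n = 6) with the human microbiota and did not pass the threshold (LFC −0.44, SE 0.23, FDR = 0.200).

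Of the GDNF and endothelin signalling genes, the receptors Ret, Gfra1 and Ednrb fell, while neither of the ligand genes Gdnf and Edn3 passed the threshold. Gfra1 encodes the co-receptor that binds GDNF. Gfra1 stood at 0.712, 0.534, 0.796, 0.863 and 0.771 RPKM in germ-free mice 1 to 5, against a humanized range of 0.119 to 0.220 RPKM with a median of 0.185. The groups were far apart, and this was the lowest FDR of the members (LFC −2.05, SE 0.19, FDR = 7.78e-18). Ret encodes the receptor tyrosine kinase that signals for GDNF, and lies on chromosome 6 from 118151748 to 118197744. Levels in germ-free mice 1 to 5 were 0.849, 0.916, 0.974, 1.16 and 1.002 RPKM, whereas those in humanized mice spanned 0.249 to 0.536 RPKM around a median of 0.437. The groups did not overlap (LFC −1.19, SE 0.17, FDR = 1.24e-07).

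Gdnf, which gut muscle and other mesenchymal cells produce, had a mean of 0.971 ± 0.167 RPKM (SD, n = 5) without and 0.457 ± 0.220 RPKM (SD, n = 6) with the human microbiota (LFC −1.09, SE 0.40, FDR = 0.0325). Every humanized mouse was below every germ-free mouse, but humanized mouse 5 had 0.0600 RPKM and the next lowest had 0.380. Gdnf was called lower without humanized mouse 5, and also without both that mouse and germ-free mouse 4. Ednrb, the endothelin receptor of neural crest cells that other cells of the gut wall also carry, fell without overlap (LFC −1.18, SE 0.29, FDR = 8.94e-04). RPKM values of Ednrb were 6.05, 5.06, 5.71, 6.06 and 5.56 in germ-free mice 1 to 5 and 0.709, 2.79 and 3.48 at the lowest, median and highest of the humanized mice. Edn3, its ligand, had a mean of 2.81 ± 1.05 RPKM (SD, n = 5) without and 2.38 ± 1.18 RPKM (SD, n = 6) with the human microbiota and did not pass the threshold (LFC −0.24, SE 0.30, FDR = 0.629).

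Of the 3 cholinergic genes, only Chat had enough reads to be tested. Chat encodes the enzyme that makes acetylcholine, and 9 to 35 reads per germ-free mouse and 11 to 25 per humanized mouse were counted on it. Germ-free mice 1 to 5 had 0.0508, 0.0680, 0.0852, 0.199 and 0.0560 RPKM, and the lowest, median and highest humanized values were 0.0974, 0.125 and 0.188 RPKM. The groups overlapped and the difference did not pass the threshold (LFC 0.53, SE 0.38, FDR = 0.365). Tuft cells of the epithelium also express Chat. The vesicular acetylcholine transporter gene Slc18a3, which lies inside the Chat locus, had 24, 31, 17, 8 and 10 reads in germ-free mice 1 to 5 and 0 to 6 reads in humanized mice. The choline transporter gene Slc5a7 had 5 to 28 reads in germ-free mice and 0 to 8 in humanized mice. Both were below the filter, and a count of 0 allows up to 3 reads. Without a filter, Slc18a3 was called lower.

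**Figure D3:**
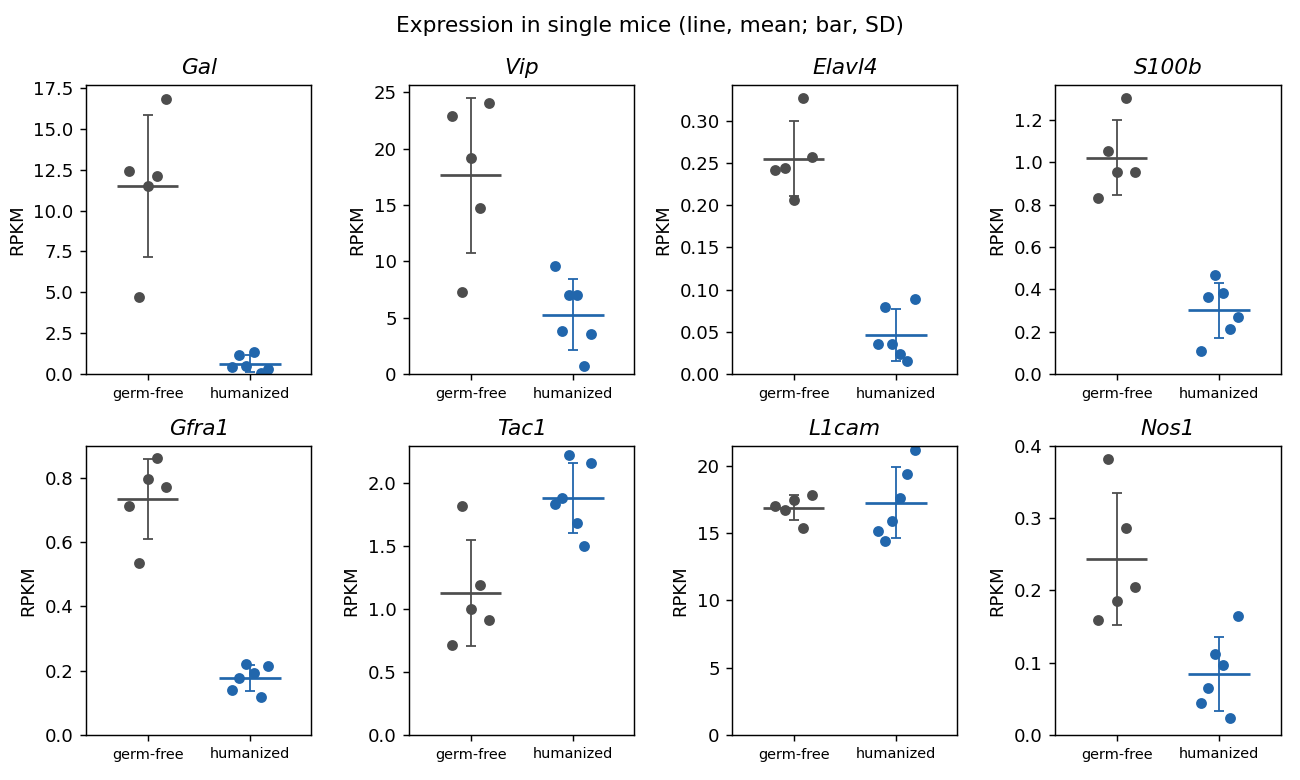
RPKM of 8 members in single mice, each panel with its own linear axis from 0, with the mean as a line and the SD as a bar (n = 5 germ-free and 6 humanized mice). Gal, Elavl4, S100b and Gfra1 separate the groups, Vip and Nos1 overlap in part, and the humanized means of Tac1 and L1cam, at 1.88 and 17.3 RPKM, are not below the germ-free means, though the direction for L1cam turned under other scalings.

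The transmitter, peptide and calcium-binding genes held both the lowest and the highest LFC. Gal encodes galanin, a neuropeptide of submucosal and myenteric neurons, and lies on chromosome 19 from 3409919 to 3414472. Gal stood at 12.4, 4.72, 11.5, 12.1 and 16.8 RPKM in germ-free mice 1 to 5, against a humanized range of 0.0591 to 1.37 RPKM with a median of 0.462. The level in humanized mice was 17.9-fold lower and no mouse overlapped with the other group (LFC −4.17, SE 0.53, FDR = 1.94e-11). Reads fell from between 176 and 838 per germ-free mouse to between 2 and 38 per humanized mouse.

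Vip encodes vasoactive intestinal peptide, a relaxant and secretory transmitter. In germ-free mice 1 to 5 the level was 22.9, 7.28, 19.2, 14.7 and 24.1 RPKM, and the humanized mice ran from 0.703 through a median of 5.41 to 9.59 RPKM. Germ-free mouse 2 lay below the highest humanized mouse, so the groups overlapped (LFC −1.74, SE 0.48, FDR = 0.00257). Leaving out germ-free mouse 1, germ-free mouse 5 or humanized mouse 2 moved Vip above the threshold. Calb2, the calcium-binding protein calretinin of several enteric neuron types, also fell. Calb2 stood at 5.11, 2.54, 5.33, 6.24 and 8.09 RPKM in germ-free mice 1 to 5, against a humanized range of 0.118 to 2.55 RPKM with a median of 1.29. Only humanized mouse 4, at the top of its group, exceeded germ-free mouse 2 (LFC −2.09, SE 0.52, FDR = 8.02e-04).

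Penk encodes the precursor of the enkephalins, opioid peptides of motor neurons. Its exons share 233 bases with an overlapping gene on the other strand. Levels in germ-free mice 1 to 5 were 4.02, 4.02, 5.66, 6.16 and 3.34 RPKM, whereas those in humanized mice spanned 0.271 to 1.73 RPKM around a median of 0.978. The groups were separate (LFC −2.21, SE 0.35, FDR = 5.29e-08). Nos1 encodes the nitric oxide synthase of inhibitory motor neurons. RPKM values of Nos1 were 0.159, 0.382, 0.186, 0.286 and 0.204 in germ-free mice 1 to 5 and 0.0227, 0.0810 and 0.165 at the lowest, median and highest of the humanized mice. Humanized mouse 6 was above germ-free mouse 1 (LFC −1.52, SE 0.41, FDR = 0.00241). The call of Nos1 was lost when germ-free mouse 2, germ-free mouse 4, humanized mouse 1 or humanized mouse 2 was left out. Npy, encoding neuropeptide Y, had at most 4 reads in any mouse and was not tested.

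Tac1 encodes the precursor of substance P and neurokinin A, transmitters of excitatory motor and sensory neurons that enterochromaffin cells also make. Germ-free mice 1 to 5 had 0.714, 1.82, 1.001, 1.19 and 0.909 RPKM, and the lowest, median and highest humanized values were 1.499, 1.86 and 2.22 RPKM. Humanized means were higher and the groups overlapped through germ-free mouse 2 alone (LFC 0.74, SE 0.21, FDR = 0.0103). Without germ-free mouse 2 the LFC was 0.98 (edgeR's exact test, FDR = 5.64e-05), and without humanized mouse 5 it was also called higher (FDR = 0.00464). Scaled to epithelial markers, the LFC was 0.51 (FDR = 0.136). Tph1, the serotonin synthesis gene of enterochromaffin cells, was higher in humanized mice (LFC 0.89, FDR = 7.92e-06), and its part in the level of Tac1 was not tested.

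For the catecholamine genes, Dbh, which converts dopamine to noradrenaline, fell in humanized mice. Dbh stood at 1.38, 0.142, 0.915, 0.767 and 1.33 RPKM in germ-free mice 1 to 5, against a humanized range of 0.0626 to 0.305 RPKM with a median of 0.152. Germ-free mouse 2 was within the humanized range, while the other 4 germ-free mice were above it (LFC −2.41, SE 0.49, FDR = 3.66e-05). Th, which encodes the first enzyme of this pathway, had 4 to 14 reads in germ-free mice and 0 to 8 in humanized mice and was not tested.

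Of the 4 glial genes, Sox10 and S100b fell. Sox10 encodes the transcription factor that maintains neural crest progenitors and glia. In germ-free mice 1 to 5 the level was 0.544, 0.472, 0.725, 1.04 and 0.675 RPKM, and the humanized mice ran from 0.0198 through a median of 0.135 to 0.264 RPKM. The groups did not overlap (LFC −2.33, SE 0.43, FDR = 1.97e-06). S100b encodes a calcium-binding protein of enteric glia. S100b stood at 0.834, 1.06, 0.956, 1.31 and 0.954 RPKM in germ-free mice 1 to 5, against a humanized range of 0.110 to 0.469 RPKM with a median of 0.316. Again no humanized mouse reached the germ-free range (LFC −1.75, SE 0.29, FDR = 1.02e-07). Gfap, the glial filament gene, had a mean of 0.359 ± 0.202 RPKM (SD, n = 5) without and 0.147 ± 0.0843 RPKM (SD, n = 6) with the human microbiota and did not pass the threshold (LFC −1.28, SE 0.43, FDR = 0.0178). Gfap was called lower without germ-free mouse 5, without humanized mouse 6, with total counts and with scaling to epithelial markers (edgeR's exact test, FDR from 0.00171 to 0.00951). Fabp7, a fatty acid-binding protein of glia, had 0 to 16 reads in any mouse and was not tested.

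Other genes of the same system were taken from lists of names. Of 30 other enteric neuron genes, 16 fell, 9 were not called and 5 were not tested, with a median LFC of −1.47 over those tested. The lowest FDR values were those of Calcb, encoding the peptide CGRP-β (LFC −4.12, FDR = 2.15e-16), the internexin gene Ina (LFC −2.83, FDR = 2.38e-13) and the vesicle protein gene Sv2b (LFC −2.86, FDR = 2.99e-12). Of the 25 genes tested on this list, 9 passed the low-count filter only with the germ-free mice, Calcb and Ina among them, and 9 of the other 16 fell. Of 12 other genes listed for glia, 6 fell and 4 were not called, and the lowest FDR values were those of the potassium channel gene Kcna1 (LFC −2.60, FDR = 2.66e-08), the sodium channel gene Scn7a (LFC −2.12, FDR = 9.48e-08) and the transcription factor gene Foxd3 (LFC −2.22, FDR = 3.67e-07). Erbb3 and Entpd2, also on that list, had germ-free means of 92.4 and 16.2 RPKM and were not called. Erbb3 and Entpd2 were singled out after their values were seen. Of 10 other GDNF and endothelin genes, 3 fell (Gfra4, Artn and Gfra2), of which Gfra4 passed the filter only with the germ-free mice.

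Ratios of 2 genes within a mouse do not depend on how the libraries were scaled. The lowest, median and highest ratio of Nos1 to Chat reads was 5.69, 12.4 and 22.3 in germ-free mice and 0.923, 2.07 and 6.57 in humanized mice, and it was lower in humanized mice (difference −2.41 on the log2 scale, standard error 0.51, exact permutation test over the mice, two-sided p = 0.00649, adjusted over the 4 ratios 0.0130). The ranges overlapped through humanized mouse 6. This ratio sets the values of Nos1 and Chat given above beside each other and is no separate evidence. The ratio of Tac1 to Elavl4 reads was 1.87, 2.29 and 4.70 in germ-free mice and 14.9, 36.2 and 60.5 in humanized mice, with no overlap (difference 3.51 on the log2 scale, standard error 0.41, exact permutation test over the mice, two-sided p = 0.00216, adjusted over the 4 ratios 0.00866). This p is the smallest that 5 mice against 6 allow. Elavl4 passed the low-count filter only through the germ-free mice and its fall is given above, so this ratio restates that fall beside the level of Tac1 and is no separate evidence. The ratio of the glial gene S100b to Elavl4 was 0.951, 1.10 and 1.28 in germ-free mice and 0.833, 2.46 and 4.40 in humanized mice (difference 0.82 on the log2 scale, standard error 0.47, exact permutation test over the mice, two-sided p = 0.167, adjusted over the 4 ratios 0.222), and that of Vip to Elavl4 was 8.43, 26.4 and 26.8 in germ-free mice and 11.3, 35.0 and 83.0 in humanized mice (difference 0.71 on the log2 scale, standard error 0.66, exact permutation test over the mice, two-sided p = 0.310, adjusted over the 4 ratios 0.310). Neither of these passed a threshold of 0.05, which does not exclude a difference. Elavl4 had 4 to 24 reads per humanized mouse, and the size of difference that could be detected was not tested.

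Smooth muscle marker genes moved with the neural genes. Their LFC ran from −2.41 to −0.90, and their summed RPKM ran from 460 to 1291 in germ-free and from 66.8 to 460 in humanized mice. Of 7 fibroblast markers, 5 fell, with summed RPKM from 171 to 303 in germ-free and from 19.98 to 145 in humanized mice. None of the muscle or fibroblast markers was at 0 in any mouse. The share of tissue from each wall layer was not measured, and its part in the fall of the neural genes was not tested. Humanized mouse 6 had nearly the same summed muscle level as germ-free mouse 1, at 460.4 and 460.1 RPKM. In these 2 mice the summed level of the neuronal structural genes without L1cam was 4.41 and 11.3 RPKM, Gal was 0.336 and 12.4 RPKM, and S100b was 0.269 and 0.834 RPKM. Some members were instead higher in humanized mouse 6 than in germ-free mouse 1. Among them were Nos1 (0.165 and 0.159 RPKM), Gfap (0.298 and 0.211), Edn3 (4.74 and 1.89), Tac1 (2.16 and 0.714) and Chat (0.0994 and 0.0508). Other wall markers differed between these 2 mice too, with summed fibroblast markers at 93.1 and 243 RPKM and summed endothelial markers at 11.9 and 19.9 RPKM. This pair and the genes named for it were chosen after their values were seen.

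The summed RPKM of all 38 genes divided by that of the 12 muscle markers was 0.201, 0.112, 0.126, 0.0709 and 0.191 in germ-free mice 1 to 5, and 0.102, 0.246 and 0.434 at the lowest, median and highest in humanized mice. The mean of this ratio was 0.140 in germ-free and 0.271 in humanized mice. Without L1cam the means were 0.113 and 0.146. L1cam was not the only member that was not called lower, Tac1 and Chat among the others, but it alone was left out. As a description, each of the 33 tested members was also set against the summed muscle level as log2 of RPKM + 0.01 over that sum. On this scale 12 members had a lower and 21 a higher mean in humanized mice, with a median difference of 0.31, and 28 overlapped between the groups. L1cam, Edn3, Chat and Tac1 were higher in every humanized mouse, where 44.5% of all genes tested were separated in that direction. Gal was lower in every humanized mouse, with a difference of −2.495, where 0.00503% of all genes tested (1 of 19863) were separated in that direction. Gal also had the lowest LFC of the members, so both values rest on the same levels.

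**Figure D4:**
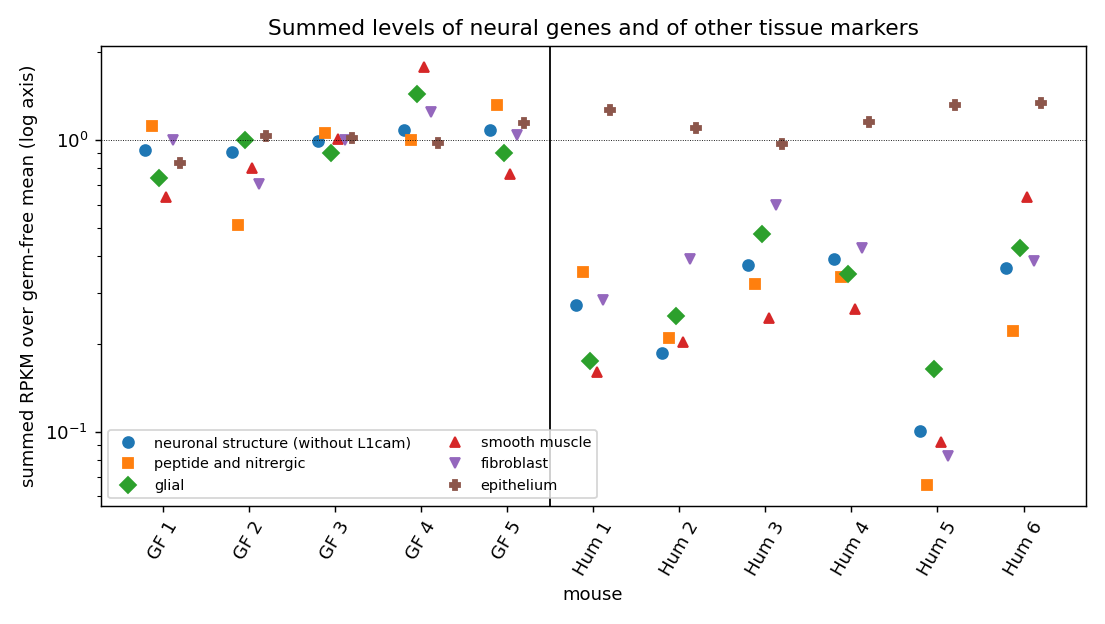
Summed RPKM of 3 sets of neural genes and of smooth muscle, fibroblast and epithelial markers in each mouse, divided by the germ-free mean of the same set (log axis). Neural, muscle and fibroblast points are below the germ-free mean in every humanized mouse and lowest in humanized mouse 5, muscle reaches 0.636 in humanized mouse 6, and epithelial markers lie between 0.967 and 1.34.

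The spread between mice is given as a description. The median coefficient of variation over the 33 members was 17.3% in germ-free and 48.2% in humanized mice. For 21 of the 23 genes that fell, humanized mouse 5 had the lowest value of its group. This mouse was also lowest in summed muscle and fibroblast markers. Without it, 24 members were called lower and 1 (Tac1) higher, and the median LFC was −1.32. Without both this mouse and germ-free mouse 4, which had the highest summed smooth muscle and adipocyte markers, 24 were called lower and none higher, with a median of −1.26.

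Within the germ-free group, mouse 2 was lowest for 17 and highest for 5 of the 33 members, and mouse 4 was highest for 13. In mouse 2 the levels of Vip, Gal, Calb2 and Dbh were 36.0%, 35.7%, 41.0% and 12.9% of the mean of the other 4 germ-free mice. In the same mouse Nos1, Tac1, Gfap and Phox2a were at 183%, 191%, 202% and 176% of that mean. These 8 genes were singled out after their values were seen, so no test was made. By Dixon's criterion at the 95% level, mouse 2 was marked for none of the 8 and for Nefm alone among the members.

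**Figure D5:**
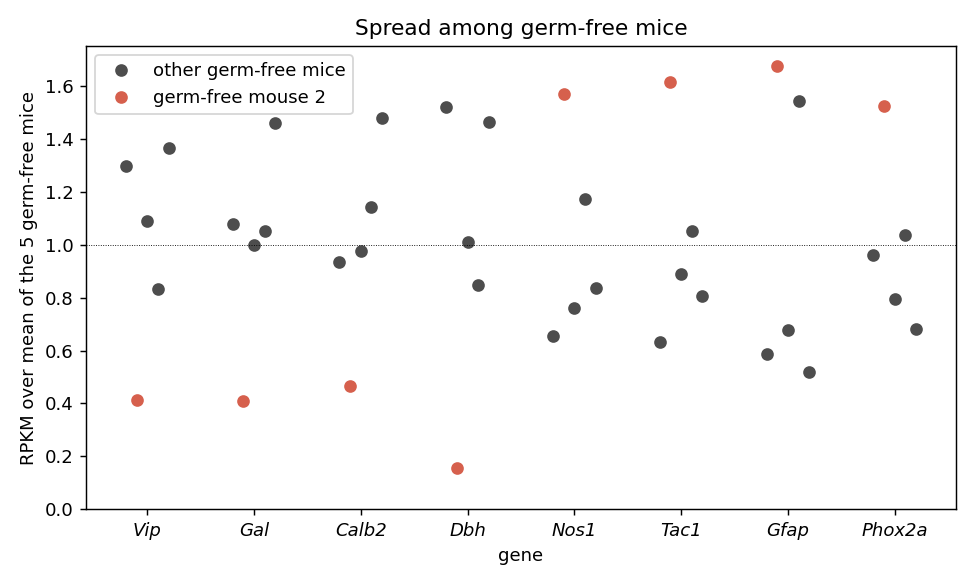
RPKM of 8 members in the 5 germ-free mice, each divided by the mean of the 5 (linear axis from 0). Germ-free mouse 2, in red, is lowest for Vip, Gal, Calb2 and Dbh and highest for Nos1, Tac1, Gfap and Phox2a.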

How the data were processed

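Colonic mRNA of 5 germ-free and 6 humanized mice was sequenced as 101 bp paired-end reads from a kit that does not mark strand. Per the submitters' processing notes and the study's methods, the authors mapped reads to mm10 (Bowtie2 2.2.3 within TopHat2 2.1.0), counted them per gene (featureCounts, Subread 1.4.6-p5), and deposited raw counts of 43346 genes without normalization. RPKM used the deposited gene lengths, whose derivation is not given in the sources used here.

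edgeR 4.0.16 (R 4.3.3) gave the main test, after the study's methods: TMM, estimateDisp and the exact test at FDR below 0.01, over the 19863 genes kept by filterByExpr (count 10 or more, total 15 or more, proportion 0.7 beyond 10 samples). SE came from the quasi-likelihood fit. Both tests were also run on simulated counts, with genes drawn independently and few of them changed. That setting differs from these data, and no result here rests on it. Ratios of 2 genes were compared by two-sided exact permutation of mice. Alternatives were DESeq2 1.42.0, the quasi-likelihood test, other scalings and filters, leaving out each mouse, and a replicate block. Leaving out 2 mice together, and L1cam out of the sum, were added after seeing the data.

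Of the members, mouse values are given for those called, the most abundant of each role, and Tac1 for its highest LFC, an exception made after its values were seen. Of other lists, at most 3 genes called in each direction with the lowest FDR are named, others where said. The members, lists and ratios were chosen with earlier results of these data known. No batch was given in the labels, and no 2 libraries of a group were alike within counting noise (mean chi-square per gene from 21.2 to 123). RefSeq promoter windows matched 28 of 38 members by symbol.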

Additional observations from a re-analysis of the deposited data

Results flagged for a closer look

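Within each group, a gene was marked where its highest or lowest mouse stood apart from the rest by Dixon's criterion at the 95% level, for which chance gives about 1 in 20 groups. Of 74 groups of values examined, 5 were marked. In humanized mouse 6, Edn3 was 4.74 RPKM and the next highest humanized mouse had 2.27. In the same mouse, Nefm was 0.186 RPKM with the next lowest at 0.307. Snap25 was 0.350 RPKM in humanized mouse 5, where the next lowest was 0.565. Nefm was 0.301 RPKM in germ-free mouse 2 with the next lowest at 0.458, and Chat was 0.199 RPKM in germ-free mouse 4, from 35 reads, with the next highest at 0.0852.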

How the results depend on the processing

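The count of 23 members called lower stayed between 20 and 24 when each mouse was left out, was between 23 and 27 under DESeq2, other scalings, no filter and FDR below 0.05, and was 17 under the quasi-likelihood test. It was 13 when at least 10 counts were required in every mouse, which left 22 members tested and 10 of the 23 untested. With the replicate block, in the quasi-likelihood test, it was 10. The mouse numbers refer to different animals, and deviations of same-numbered mice correlated between −0.13 and 0.091. Differences in tissue content between mice also enter these correlations, so they cannot tell whether same-numbered mice shared a batch. The count called higher was 1 under DESeq2, under the filter on every mouse and at FDR below 0.05, between 0 and 1 with each mouse left out, and Tac1 was the gene each time. The median LFC lay between −1.66 and −1.32 with each mouse left out. L1cam turned to an LFC of −0.0086 with upper-quartile scaling, −0.16 with total counts, −0.23 with scaling to epithelial markers, −0.042 with the replicate block and −0.036 with germ-free mouse 4 and humanized mouse 5 left out, and lay between −0.041 and 0.074 with single mice left out. The cause was not tested. Scaling to epithelial markers moved the median LFC of all genes to −0.24 and total counts to −0.18; the members' median was then −1.51 relative to it in both. The log2 ratio of group means of members over muscle was 0.95, and 0.77 to 1.12 with each mouse left out. Low read numbers limit Chat, Slc18a3, Slc5a7, Npy, Th and Fabp7. Several called members also rested on few reads per humanized mouse, among them Sox10 (2 to 34), Tubb3 (4 to 50) and S100b (6 to 33).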

Other observations

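Interstitial cells of Cajal, the pacemaker cells that lie beside enteric neurons, were represented by 5 listed genes. Etv1 (LFC −1.43, FDR = 2.17e-09) and Kcnn3 (LFC −1.91, FDR = 1.30e-07) fell in humanized mice. Kit (LFC −0.29, FDR = 0.0426), Ano1 (LFC −0.30, FDR = 0.0175) and Cacna1h (LFC −0.22, FDR = 0.286) did not pass the threshold in edgeR's exact test and were singled out after their values were seen, and their germ-free means were 28.6, 12.3 and 9.83 RPKM against 1.82 for Etv1 and 0.888 for Kcnn3. Of 5 endothelial genes, Pecam1 (LFC −0.91, FDR = 0.0171), Cdh5 (LFC −1.07, FDR = 0.0134) and Tie1 (LFC −1.08, FDR = 0.0171) had the lowest FDR values and did not pass the threshold in edgeR's exact test, with a median LFC of −0.91 over the 5. Of 6 leukocyte genes, Cd3e (LFC 1.15, FDR = 3.26e-06) and Cd79a (LFC 1.62, FDR = 0.00911) rose. The others did not pass the threshold, among them Ptprc (LFC 0.40, FDR = 0.273) above 0 and Csf1r (LFC −0.53, FDR = 0.127) and Cpa3 (LFC −0.58, FDR = 0.438) below it in edgeR's exact test. The summed RPKM of the 6 overlapped between the groups, from 9.78 to 13.0 in germ-free and from 6.87 to 25.0 in humanized mice.

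The adipocyte gene Adipoq was 3.86 RPKM in germ-free mouse 4 and at most 0.744 in any other mouse, whereas Cidec, the adipocyte-listed gene with the highest level, was 7.18 RPKM there and 7.84 and 7.73 RPKM in humanized mice 5 and 6. The mesothelial gene Upk3b was 2.06 RPKM in germ-free mouse 4 and at most 0.549 elsewhere. Germ-free mouse 4 also had the highest summed smooth muscle level, 1291 RPKM, and the highest Sox10, Hand2 and Elavl4 levels among the 11 mice. These genes were singled out after their values were seen.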
